A study of Oryza sativa with 8 samples.

Results

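The loci described here were the expressed members of 3 stretches of rice chromosome 11 in roots of 2 breeding lines, of which 1 tolerates cold and the other is sensitive to it. Members were the gene IDs of the form LOC_Os11g and a locus number, from LOC_Os11g09280 to LOC_Os11g10710 (the first stretch), from LOC_Os11g14000 to LOC_Os11g15670 (the second) or from LOC_Os11g35020 to LOC_Os11g37759 (the third), with a mean of at least 1 normalised read over all libraries. LOC_Os11g10480 and LOC_Os11g10510 were left out by the rule. The 3 stretches held 410 IDs, of which 73 had a mean of 0, 114 a mean above 0 and below 1, and 2 were the left-out loci. The other 221 were members, 56 in the first, 57 in the second and 108 in the third stretch, of 42189 IDs in all and 27328 with a mean of at least 1. The ends of the stretches were chosen by measured values, because many loci within them differed between the lines at 28 °C in these same data. The line difference at 28 °C is therefore given as a description, with no test.

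RNA was taken from roots of 2 indica lines grown in nutrient solution to the 3-leaf stage, at about 30 days. Both are IRGA selections whose names begin alike, called cold-tolerant and cold-sensitive in the labels. The 4 groups were tolerant roots at 10 °C, sensitive roots at 10 °C, tolerant roots at 28 °C and sensitive roots at 28 °C, with 2 libraries per group and roots of 4 plants in each library. For the length of the cold treatment the extraction protocol gives 24 h and the titles up to 10 days, so the duration behind the 10 °C values is uncertain. Each line is a single genotype with the trait, and no further line or cross is among the samples, so tolerance and every other difference between these lines cannot be told apart. The labels call the replicates biological and say nothing more of how they were separated, so the p-values measure only the spread between these libraries. In whole roots, fewer cells of a type and less RNA per cell cannot be told apart.

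As background, rice locus numbers of this kind run in order along a chromosome, so neighbouring numbers are neighbouring loci. Breeding lines that share a pedigree share much of their genome and differ in blocks inherited from different ancestors, and the genes within such a block can differ in sequence, in copy number or in presence. Chromosome 11 of rice is known for dense clusters of disease-resistance-type genes, which vary in number and sequence among cultivars. Reads were assigned to loci of a reference annotation, so a low value at a locus can come from little RNA or from a sequence that departs from the reference, and these cannot be told apart here. None of the member IDs could be paired with a gene name (0 of 221), so loci are given by ID and no function is stated for any of them.

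Values are normalised reads, the reads of a library at a locus divided by that library's size factor, and they are not scaled to gene length, so levels are compared between groups and not between loci. Whole reads per library were worked out from the authors' deposited summary values for 218 of the 221 members. The 2 libraries of a group are named by depth, the deeper first in each pair of values, since which is replicate 1 was not known. Size factors were 0.991 and 0.818 in tolerant roots at 10 °C, 0.959 and 0.679 in sensitive roots at 10 °C, 1.25 and 1.21 in tolerant roots at 28 °C, and 1.24 and 1.10 in sensitive roots at 28 °C. Each library held 68930 to 83059 reads of the members. A count of 0 over both libraries of a group allowed up to 1.66 normalised reads in tolerant roots and 1.83 in sensitive roots in the cold, and up to 1.22 in tolerant roots and 1.28 in sensitive roots at 28 °C (3 reads over the group, counting error only). Among members with a mean of at least 20, the libraries of a group differed by a median of 0.41 (tolerant) and 0.47 (sensitive) on the log2 scale at 10 °C, and by 0.23 (tolerant) and 0.22 (sensitive) at 28 °C. Cold libraries of a group thus lay further apart than those at 28 °C, in both lines. The same held over all genes with such a mean and known reads. Their medians were 0.39 (tolerant) and 0.48 (sensitive) at 10 °C, and 0.24 (tolerant) and 0.17 (sensitive) at 28 °C.

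The first comparison asked how the lines differed at these loci. Most members differed little, while some differed by large factors, in both directions. A locus is called where its adjusted p (Benjamini-Hochberg over all genes tested) was below 0.05 in the authors' deposited table. The stretches were chosen on differences at the other temperature, but the cold libraries came from the same lines. They also shared 1 deposited fit with the libraries used for that choice, and earlier results of these data were known. The shares called at 10 °C are therefore descriptions and no independent test of the stretches. At 10 °C, 32 of the 174 members tested were called in the authors' deposited table (18.4%), against 2.90% of all genes tested. Of these, 15 were higher in tolerant roots (all genes: 1.31% higher) and 17 lower (all genes: 1.60% lower). The other loci of chromosome 11 with a mean of at least 1 had 39 of 1150 called (3.39%) in the authors' deposited table. Per stretch, 8 of 48 (5 higher, 3 lower in tolerant roots), 5 of 41 (3 higher, 2 lower) and 19 of 85 (7 higher, 12 lower) were called in the authors' deposited table. In all 32, both tolerant libraries at 10 °C lay on the same side of both sensitive libraries. In refits that each left out 1 cold library, with 1 library then standing for its group, 19 to 26 members were called, with 19 without the deeper tolerant or the deeper sensitive library at 10 °C, and 15 of the 32 were called in every refit.

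At 28 °C, where the stretches had been chosen, 23 of 221 members were called in the authors' deposited table, 16 higher and 7 lower in tolerant roots. Over all genes tested the percentages were 0.765 in either direction, 0.392 higher and 0.374 lower, and nothing is read from this contrast. Calls numbered 5 in the first stretch, 6 in the second and 12 in the third. Leaving out 1 library at 28 °C at a time ended 9 of the 23 calls in at least 1 refit, among them those of LOC_Os11g09474, LOC_Os11g09864, LOC_Os11g14730, LOC_Os11g15190, LOC_Os11g15300, LOC_Os11g35500, LOC_Os11g36200 and LOC_Os11g37540, and changed no sign. Of the 37 members called at either temperature, 18 were called at both (12 higher, 6 lower in tolerant roots), 14 at 10 °C only and 5 at 28 °C only. Shared calls were 48.6% of the members called at either temperature, and 20.4% of the 741 such genes over all. Calls at 10 °C only were 37.8% (all genes: 71.5%) and calls at 28 °C only were 13.5% (all genes: 8.10%). All 23 called at 28 °C had the same sign at 10 °C, and 30 of the 32 called at 10 °C had the same sign at 28 °C (93.8%). Over all genes these were 194 of 211 (91.9%) and 424 of 681 (62.3%); nothing is read from this, since the stretches were chosen at 28 °C. The other 184 members were called at neither temperature, and among the 149 members with a mean of at least 20, 96 differed less than 2-fold between lines at both temperatures. Over those 149 loci the log2 differences at both temperatures had a Pearson r of 0.910 and a Spearman rho of 0.657 (all 20132 genes with such a mean: 0.391 and −0.07). Among the 128 of them not called at 28 °C, r was 0.584 and rho 0.475. These are descriptions across loci, which are no replicates, share libraries within a temperature, and were chosen for their difference at 28 °C.

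**Figure D1:**
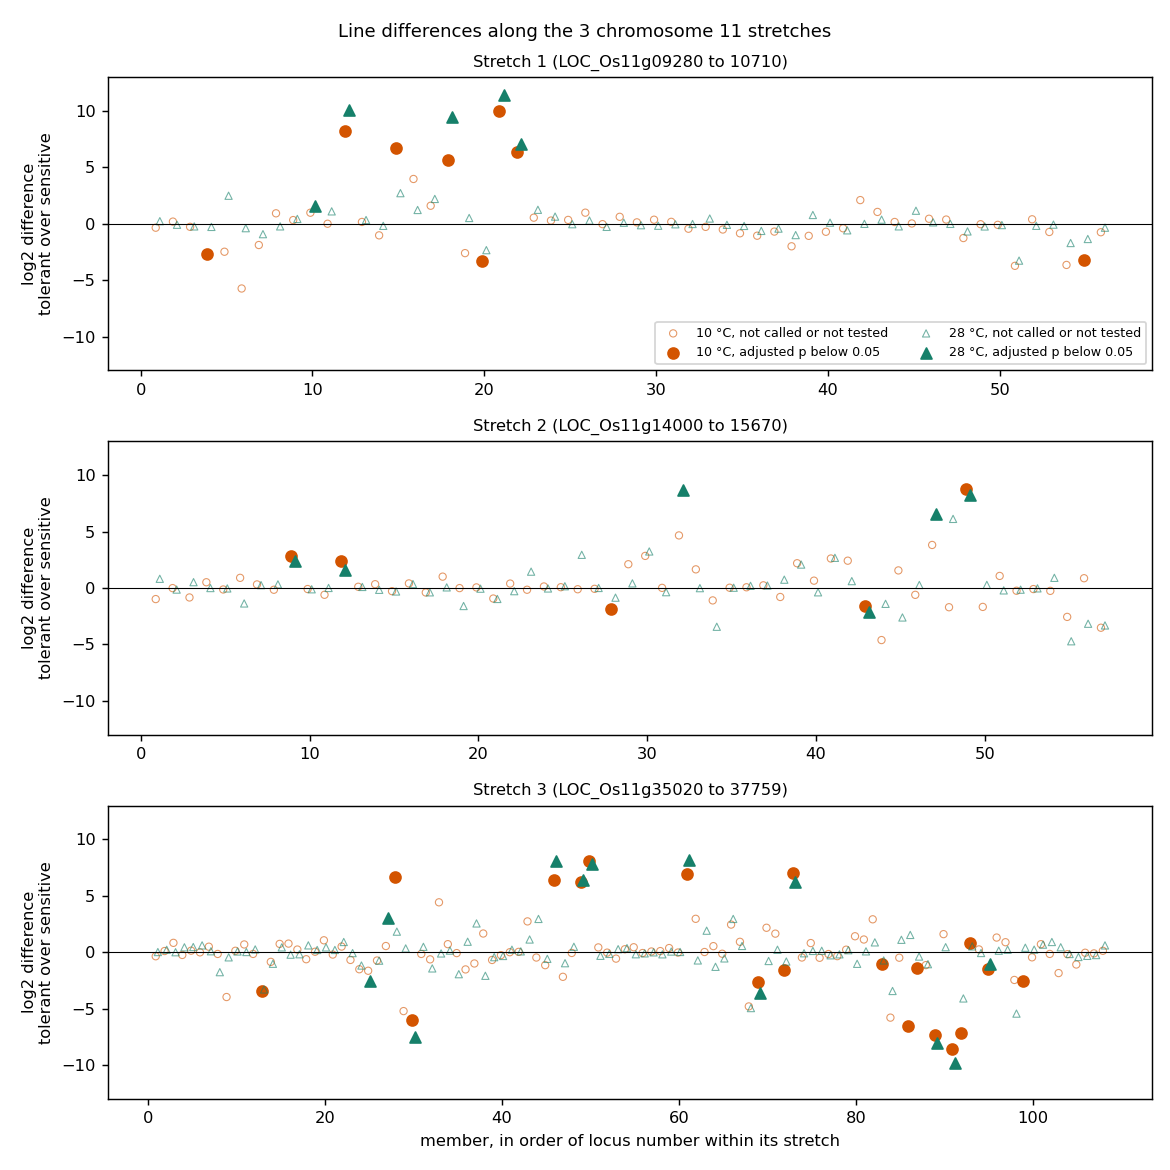
Log2 difference of tolerant over sensitive roots (authors' deposited values) at 10 °C (circles) and 28 °C (triangles) for each member, in order of locus number within its stretch; filled symbols are called and open ones are not called or not tested. Called members are scattered among loci near 0 in all 3 stretches, with points above and below 0 close to each other.

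**Figure D2:**
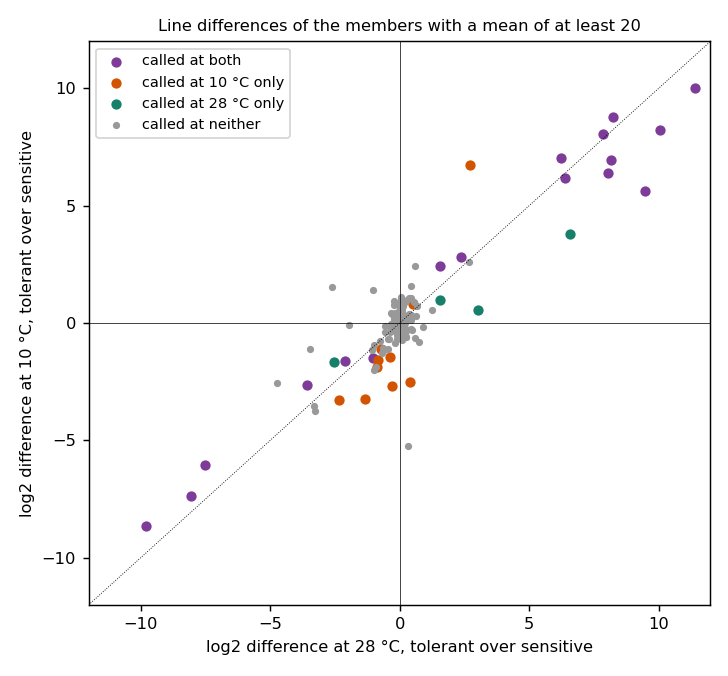
Log2 difference of tolerant over sensitive roots at 10 °C (vertical axis) against that at 28 °C (horizontal axis) for the 149 members with a mean of at least 20 normalised reads, marked by the temperatures at which they were called. The loci called at both temperatures lie in the upper right and lower left, most of them far from the dense group near 0. Some lie off the line of equal differences, such as LOC_Os11g09710 (9.47 at 28 °C and 5.62 at 10 °C). LOC_Os11g09864, also called at both, has a mean of 9.89 and is not shown.

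The called loci did not form closed blocks. Counting members in order of locus number, 6 runs of neighbouring members called at either temperature were seen, each of 2 or 3 loci. The runs of 3 spanned LOC_Os11g09820 to LOC_Os11g09864 and LOC_Os11g37390 to LOC_Os11g37510, and each of them held loci of both directions. The runs of 2 began at LOC_Os11g35500, LOC_Os11g36190, LOC_Os11g36960 and LOC_Os11g37210.

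In the first stretch, 4 members were called at both temperatures, and all 4 were higher in tolerant roots. LOC_Os11g09850 had 623 and 636 normalised reads in tolerant roots at 10 °C, against 1.04 and 0 in sensitive roots at 10 °C. At 28 °C it had 405 and 444 in tolerant roots, against 0 and 0 in sensitive roots. The locus was thus well read in all 4 tolerant libraries and had a single read in the 4 sensitive ones. At 10 °C that is a ratio of 1030 (exact 95% Poisson interval 185 to 40668), and at 28 °C a level at least 331-fold higher in tolerant roots. Such intervals, here and below, carry counting error only and leave out the spread between libraries. The log2 difference at 10 °C in the authors' deposited table was 10.00 ± 1.41 (SE), adjusted p = 8.62e-10. Where a group has 0 or few reads, such a fitted value depends on the model and is no bound.

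LOC_Os11g09590 had 705 and 376 normalised reads in tolerant roots at 10 °C, against 3.13 and 0 in sensitive roots. At 28 °C it had 1341 and 1405 in tolerant roots, against 0 and 2.73 in sensitive roots. Sensitive roots thus held 3 reads at each temperature, for a ratio of 304 (interval 104 to 1472) at 10 °C and of 1069 (interval 366 to 5184) at 28 °C. The authors' deposited table gave a log2 difference of 8.23 ± 0.94 (SE), adjusted p = 3.65e-15, at 10 °C.

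LOC_Os11g09710 had 764 and 287 normalised reads in tolerant roots at 10 °C, against 1.04 and 20.6 in sensitive roots. At 28 °C it had 1011 and 879 in tolerant roots, against 0 and 2.73 in sensitive roots. The cold libraries of each line lay far apart at this locus, though the lines did not overlap. The log2 difference at 10 °C in the authors' deposited table was 5.62 ± 1.49 (SE), adjusted p = 0.00926, and the adjusted p was 0.305 without the deeper tolerant library at 10 °C. LOC_Os11g09864 was weakly read, with 19.2 and 18.3 normalised reads in tolerant roots at 10 °C and 17.6 and 24.0 in tolerant roots at 28 °C. All 4 sensitive libraries held 0 reads of it, so that tolerant roots were at least 10.3-fold higher at 10 °C and at least 16.2-fold higher at 28 °C. Its call at 10 °C, adjusted p = 0.0157 in the authors' deposited table, was lost (0.205) without the deeper sensitive library at 10 °C.

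Of the 4 members of the first stretch called at 10 °C only, LOC_Os11g09680 had the largest difference. It had 9.08 and 39.1 normalised reads in tolerant roots at 10 °C, against 0 and 0 in sensitive roots, and 54.3 and 51.4 in tolerant roots at 28 °C, against 9.68 and 6.38 in sensitive roots. Tolerant roots were higher at both temperatures, at least 12.4-fold at 10 °C and 6.50-fold at 28 °C. The tolerant libraries at 10 °C lay far apart, so the 12.4-fold limit holds for their pooled level only. Its adjusted p at 10 °C in the authors' deposited table was 0.00518, and 0.149 without the deeper sensitive library at 10 °C. The 3 others (LOC_Os11g09350, LOC_Os11g09820 and LOC_Os11g10640, named after their values were seen) were lower in tolerant roots. LOC_Os11g10640 had 4.04 and 8.56 normalised reads in tolerant roots at 10 °C, against 60.5 and 56.0 in sensitive roots, with 44.7 and 58.9 in tolerant roots at 28 °C against 122 and 142 in sensitive roots. The difference at 10 °C was −3.25 ± 0.60 (SE) in the authors' deposited table, adjusted p = 1.34e-05. LOC_Os11g09474, the only member of this stretch called at 28 °C only, had 109 and 104 normalised reads in tolerant roots at 10 °C against 46.9 and 61.8 in sensitive roots, and 131 and 123 in tolerant roots at 28 °C against 44.3 and 41.9 in sensitive roots. Tolerant libraries were higher at both temperatures, and the 10 °C difference of 0.98 ± 0.36 (SE) in the authors' deposited table did not pass, adjusted p = 0.132.

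In the second stretch, 4 members were called at both temperatures, 3 higher and 1 lower in tolerant roots. LOC_Os11g15340 had 130.2 and 68.4 normalised reads in tolerant roots at 10 °C, against 0 and 0 in sensitive roots. At 28 °C it had 141 and 119 in tolerant roots, against 0 and 0.912 in sensitive roots. With 1 read in the 4 sensitive libraries, tolerant roots were at least 55.8-fold higher at 10 °C, and at 28 °C the ratio was 305 (interval 54.8 to 12053). The adjusted p at 10 °C was 3.41e-06 in the authors' deposited table.

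The other 3 were read in every library and differed by smaller factors. LOC_Os11g14110 had 189.8 and 219 normalised reads in tolerant roots at 10 °C against 33.4 and 23.6 in sensitive roots, and 266 and 333 in tolerant roots at 28 °C against 55.6 and 59.2 in sensitive roots. Its log2 difference was 2.82 ± 0.38 (SE) at 10 °C, adjusted p = 4.49e-11, and 2.38 ± 0.33 at 28 °C in the authors' deposited table. LOC_Os11g14160 had 256 and 239.6 normalised reads in tolerant roots at 10 °C against 51.1 and 41.2 in sensitive roots, and 676 and 879 in tolerant roots at 28 °C against 224 and 297 in sensitive roots. Both lines had fewer reads of it in the cold, and the line difference at 10 °C was 2.42 ± 0.34 (SE) in the authors' deposited table, adjusted p = 7.39e-10. LOC_Os11g15190 was lower in the tolerant line, with 82.8 and 90.4 normalised reads in tolerant roots at 10 °C against 246 and 287 in sensitive roots, and 60.7 and 31.5 in tolerant roots at 28 °C against 166 and 233 in sensitive roots. The difference at 10 °C, −1.62 ± 0.41 (SE) with adjusted p = 0.00529 in the authors' deposited table, lost its call (0.131) without the deeper tolerant library at 10 °C.

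LOC_Os11g14570 was the only member of the second stretch called at 10 °C only, with 207 and 109 normalised reads in tolerant roots at 10 °C, against 682 and 464 in sensitive roots. At 28 °C it had 441 and 333 in tolerant roots, against 677 and 730.1 in sensitive roots. It was lower in the tolerant line at both temperatures, by −1.86 ± 0.39 (SE) at 10 °C (adjusted p = 0.000307) in the authors' deposited table. That call was lost in a refit without the deeper sensitive library at 10 °C. The 2 members called at 28 °C only, LOC_Os11g14730 and LOC_Os11g15300, were read almost only in tolerant roots. LOC_Os11g14730 had 10.1 and 1.22 normalised reads in tolerant roots at 10 °C against 0 and 0 in sensitive roots, and 44.7 and 88.7 in tolerant roots at 28 °C against 0 and 0 in sensitive roots. LOC_Os11g15300 had 5.05 and 1.22 normalised reads in tolerant roots at 10 °C against 0 and 0 in sensitive roots, and 31.1 and 137 in tolerant roots at 28 °C against 0 and 1.82 in sensitive roots. Both had few reads in the tolerant line in the cold, where the line difference did not pass in the authors' deposited table (adjusted p = 0.206 for LOC_Os11g14730 and 0.381 for LOC_Os11g15300).

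In the third stretch, 10 members were called at both temperatures, 5 higher and 5 lower in tolerant roots. The largest difference at 10 °C was that of LOC_Os11g37390, which had 0 reads in all 4 tolerant libraries. It had 94.9 and 66.3 normalised reads in sensitive roots at 10 °C and 115 and 150.4 in sensitive roots at 28 °C. Tolerant roots were thus at least 50.1-fold lower at 10 °C and at least 108-fold lower at 28 °C (adjusted p = 4.33e-06 at 10 °C in the authors' deposited table). LOC_Os11g37300, which lies close to it in locus number, had 1.01 and 0 normalised reads in tolerant roots at 10 °C against 109.5 and 70.7 in sensitive roots, and 0.798 and 0.829 in tolerant roots at 28 °C against 195 and 236 in sensitive roots. The 4 tolerant libraries held 3 reads of it in all. The sensitive line was higher by a ratio of 169 (interval 30.3 to 6673) at 10 °C and of 264 (interval 72.9 to 2176) at 28 °C, with adjusted p = 0.000110 at 10 °C in the authors' deposited table.

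LOC_Os11g35710 was read in every library and was far lower in the tolerant line. It had 8.08 and 4.89 normalised reads in tolerant roots at 10 °C, against 476 and 383 in sensitive roots. At 28 °C it had 6.39 and 12.4 in tolerant roots, against 1972 and 1416 in sensitive roots. The difference was −6.03 ± 0.54 (SE) at 10 °C, adjusted p = 3.92e-25, and −7.50 ± 0.45 at 28 °C in the authors' deposited table. The sensitive line had fewer reads of it in the cold, a log2 change of −1.98 ± 0.34 (SE), adjusted p = 7.07e-08, while the change in tolerant roots was −0.51 ± 0.61, adjusted p = 0.541, in the authors' deposited table. The difference between these responses was not called. Tolerant roots held only 12 reads of the locus at 10 °C and 23 at 28 °C.

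Between these, near the middle of the third stretch by locus number, lay 5 members that were higher in the tolerant line. LOC_Os11g36160 had 330.1 and 392 normalised reads in tolerant roots at 10 °C against 3.13 and 5.89 in sensitive roots, and 572 and 566 in tolerant roots at 28 °C against 0.806 and 3.65 in sensitive roots. LOC_Os11g36190 had 321 and 550.0 normalised reads in tolerant roots at 10 °C against 8.34 and 2.95 in sensitive roots, and 503 and 409.7 in tolerant roots at 28 °C against 7.26 and 3.65 in sensitive roots. At 10 °C their log2 differences in the authors' deposited table were 6.39 ± 0.63 (SE) for LOC_Os11g36160, adjusted p = 5.19e-21, and 6.19 ± 0.63 for LOC_Os11g36190, adjusted p = 1.25e-19. Their neighbour LOC_Os11g36200 had 43.4 and 77.0 normalised reads in tolerant roots at 10 °C, 37.5 and 35.7 in tolerant roots at 28 °C, and 0 reads in all 4 sensitive libraries. Tolerant roots were at least 32.0-fold higher in LOC_Os11g36200 at 10 °C and at least 28.5-fold higher at 28 °C.

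LOC_Os11g36560 had 125 and 23.2 normalised reads in tolerant roots at 10 °C against 1.04 and 0 in sensitive roots, and 128 and 119 in tolerant roots at 28 °C against 0 and 0.912 in sensitive roots. The tolerant libraries at 10 °C lay far apart, and its call there (adjusted p = 0.00181 in the authors' deposited table) was lost (0.157) without the deeper of them. LOC_Os11g36970 had 107 and 51.3 normalised reads in tolerant roots at 10 °C against 1.04 and 0 in sensitive roots, and 136 and 124 in tolerant roots at 28 °C against 0.806 and 2.73 in sensitive roots. Both loci were higher in all tolerant libraries than in any sensitive one, by a ratio of 129 (interval 23.2 to 5115) for LOC_Os11g36560 and of 134 (interval 24.1 to 5294) for LOC_Os11g36970 at 10 °C. The remaining members called at both temperatures, LOC_Os11g36830 and LOC_Os11g37540 (named after their values were seen), were lower in the tolerant line, and the call of LOC_Os11g36830 at 10 °C was lost (adjusted p = 0.284) without the deeper sensitive library. LOC_Os11g37540 had 424 and 375 normalised reads in tolerant roots at 10 °C against 1033 and 1239.9 in sensitive roots, and 463 and 517 in tolerant roots at 28 °C against 988 and 1031 in sensitive roots. The difference at 10 °C was −1.51 ± 0.22 (SE) in the authors' deposited table, adjusted p = 6.47e-09.

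**Figure D3:**
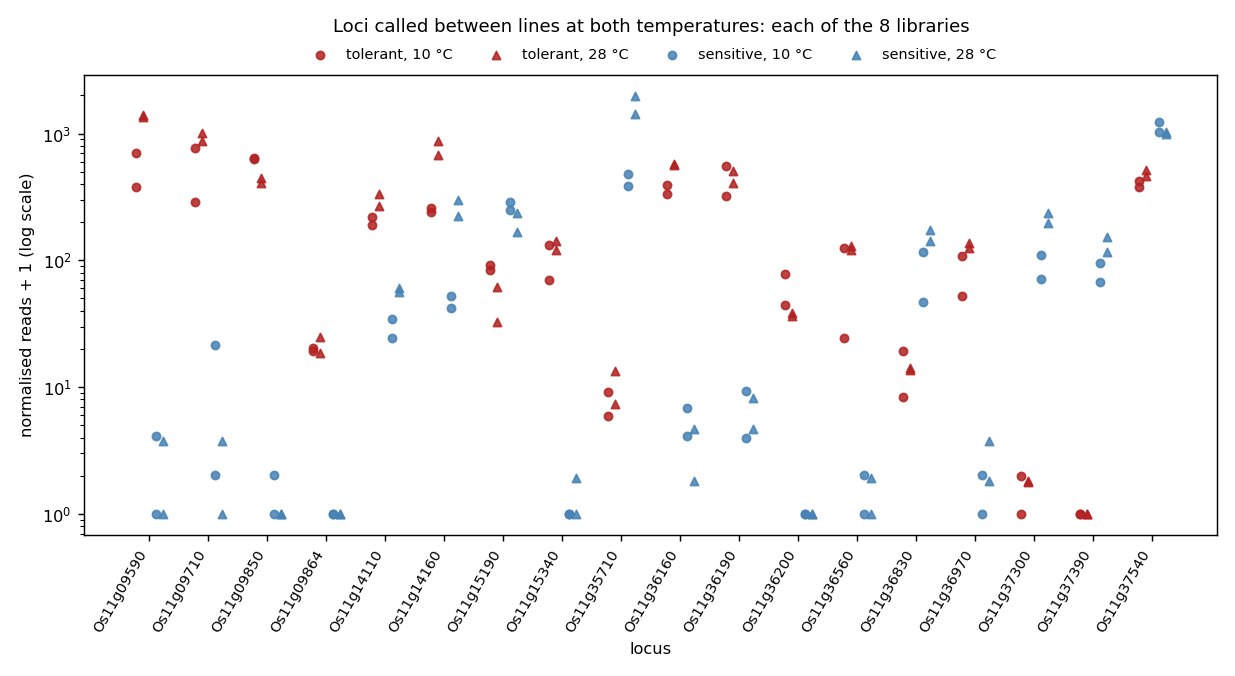
Normalised reads plus 1 (log axis) in each of the 8 libraries for the 18 loci called between lines at both temperatures, with 1 symbol per library, red for tolerant and blue for sensitive roots, circles for 10 °C and triangles for 28 °C. At every locus all tolerant libraries lie on the same side of all sensitive libraries of the same temperature, and several loci lie at or near 0 reads in a single line.

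Of the 9 members of the third stretch called at 10 °C only, LOC_Os11g37480 had the largest difference. It had 0 reads in all 4 tolerant libraries, with 34.4 and 23.6 normalised reads in sensitive roots at 10 °C and 2.42 and 2.73 in sensitive roots at 28 °C. The sensitive line held only 6 reads of it at 28 °C, and the fold below leaves out the error of that count. Tolerant roots were at least 18.0-fold lower at 10 °C and at least 2.10-fold lower at 28 °C, and the call at 10 °C (adjusted p = 0.00810 in the authors' deposited table) was lost (0.226) without the deeper tolerant library. LOC_Os11g37210 had 0 and 1.22 normalised reads in tolerant roots at 10 °C against 6.26 and 97.2 in sensitive roots, and at 28 °C no library of either line exceeded 1.66. Its high value rests on the shallower sensitive library at 10 °C, without which the adjusted p was 0.730, against 0.0376 in the authors' deposited table. LOC_Os11g35500, the larger of the 2 members called at 28 °C only, had 82.8 and 48.9 normalised reads in tolerant roots at 10 °C against 76.1 and 13.3 in sensitive roots, and 121 and 154 in tolerant roots at 28 °C against 18.5 and 15.5 in sensitive roots. The lines overlapped at 10 °C, where the adjusted p was 0.849 in the authors' deposited table.

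Some of these loci were nearly silent in 1 line, meaning at most 3 reads over its 4 libraries with at least 50 reads over the 4 libraries of the other line, a rule set after the data were seen. Of the 218 members with reads per library, 10 met it (4.59%), against 0.249% of the 26504 genes with a mean of at least 1 and known reads. Nearly silent in the tolerant line were 3 members (all genes: 0.102%), LOC_Os11g37300, LOC_Os11g37390 and LOC_Os11g37480, all in the third stretch. Nearly silent in the sensitive line were 7 members (all genes: 0.147%). These were LOC_Os11g09850 and LOC_Os11g09864 in the first stretch, LOC_Os11g14730, LOC_Os11g15300 and LOC_Os11g15340 in the second, and LOC_Os11g36200 and LOC_Os11g36560 in the third. Among the other loci of chromosome 11, 6 of 1385 met the rule (0.433%). The stretches were chosen on differences of this kind at 28 °C, so nothing is read from these percentages. The tolerant line's reads of the 7 ranged from 85 to 2180 over its 4 libraries, and the sensitive line's reads of the 3 from 55 to 654.

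The second comparison asked how the members responded to the cold in each line. Members were called in both directions in each line. The second stretch leaned to lower values in both lines, as did the other loci of chromosome 11. In tolerant roots 71 of 208 members tested were called in the authors' deposited table (34.1%), 31 higher and 40 lower at 10 °C. Over all genes 40.0% were called in tolerant roots, 20.3% higher and 19.7% lower. In sensitive roots 80 of 208 were called in the authors' deposited table (38.5%), 36 higher and 44 lower at 10 °C, and 46 without the shallower sensitive library at 10 °C. Over all genes 44.5% were called in sensitive roots, 22.8% higher and 21.8% lower. The other loci of chromosome 11 had 35.7% called in tolerant and 42.3% in sensitive roots, also below the shares of all genes. Their calls were 197 higher and 280 lower in tolerant roots, and 234 higher and 332 lower in sensitive roots. The median log2 change of the members was −0.24 in tolerant and −0.12 in sensitive roots, beside −0.08 and −0.03 over all genes tested. The other loci of chromosome 11 had medians of −0.27 in tolerant and −0.27 in sensitive roots. The 54 members called in both lines (24 higher, 30 lower) moved the same way in both, 17 more were called in tolerant roots only and 26 in sensitive roots only. Of the members called in either response, 55.7% were called in both lines, against 60.7% of such genes over all, where 99.9% of the 8370 called in both moved the same way. Calls in tolerant roots only were 17.5% of the members called in either response (all genes: 15.3%). Calls in sensitive roots only were 26.8% (all genes: 23.9%).

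In the first stretch 23 of 53 members (43.4%) were called in tolerant roots in the authors' deposited table, 11 higher and 12 lower at 10 °C. In sensitive roots 23 of 53 were called too, 13 higher and 10 lower. Both shares were near those of all genes, 40.0% in tolerant and 44.5% in sensitive roots. The largest change was that of LOC_Os11g10470, which had 1688 and 1963 normalised reads in tolerant roots at 10 °C against 20.8 and 24.0 at 28 °C. In sensitive roots it had 1818 and 6958 at 10 °C against 37.1 and 34.6 at 28 °C. It rose in both lines, by 6.35 ± 0.58 (SE, adjusted p = 1.29e-25) on the log2 scale in tolerant and by 6.93 ± 0.57 (adjusted p = 7.01e-32) in sensitive roots, per the authors' deposited table. The sensitive libraries at 10 °C lay far apart, and their range enclosed the higher of the tolerant values. The largest fall in tolerant roots was that of LOC_Os11g09360, with 0 and 0 normalised reads at 10 °C against 16.0 and 12.4 at 28 °C (adjusted p = 0.00857 in the authors' deposited table, and 0.0679 without the deeper tolerant library at 10 °C). LOC_Os11g09680, described above, fell in sensitive roots (adjusted p = 0.00799 in the authors' deposited table), where it had 0 reads at 10 °C, and the adjusted p was 0.0757 without the deeper sensitive library at 10 °C. LOC_Os11g09280 and LOC_Os11g10100 had the highest means in this stretch, 9718 and 3530 normalised reads. Neither was called in the difference between the lines' cold responses, described below. LOC_Os11g09280 fell in both lines, by −1.62 ± 0.42 (SE) in tolerant and −1.04 ± 0.42 in sensitive roots, while LOC_Os11g10100 rose in sensitive roots by 1.18 ± 0.33 (adjusted p = 0.00148, and 0.131 without the shallower sensitive library at 10 °C) and stood at 0.76 ± 0.33 in tolerant roots (adjusted p = 0.0540), in the authors' deposited table.

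In the second stretch 19 of 54 members (35.2%) were called in tolerant roots in the authors' deposited table, 4 higher and 15 lower at 10 °C. In sensitive roots 16 of 54 (29.6%) were called in the authors' deposited table, 2 higher and 14 lower. Both shares were below those of all genes, 40.0% in tolerant and 44.5% in sensitive roots. The median log2 change was −0.93 in tolerant and −0.92 in sensitive roots. Of the 14 members called in both lines, 12 were lower and 2 higher in the cold. LOC_Os11g15180 had 13.1 and 0 normalised reads in tolerant roots at 10 °C against 265 and 186 at 28 °C, and 0 and 2.95 in sensitive roots at 10 °C against 162 and 134 at 28 °C. It fell in both lines, with log2 changes of −5.05 ± 0.84 (SE, adjusted p = 3.22e-08) in tolerant and −6.86 ± 1.24 (adjusted p = 3.34e-07) in sensitive roots, per the authors' deposited table. LOC_Os11g14240 had 5.05 and 7.33 normalised reads in tolerant roots at 10 °C against 158 and 103 at 28 °C, and 3.13 and 2.95 in sensitive roots at 10 °C against 131 and 120.3 at 28 °C. Neither line's cold libraries came near its 28 °C libraries, and the line values overlapped at 28 °C. LOC_Os11g15300, read almost only in the tolerant line, fell there by −4.71 ± 1.28 (SE, adjusted p = 0.00104) in the authors' deposited table. That call was lost in a refit without the shallower tolerant library at 28 °C.

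LOC_Os11g14220 had the highest mean of all members, 61067 normalised reads, in the second stretch. Reads per library were not recovered for it, and the fitted levels at 10 °C were 48850.5 in the tolerant and 36937 in the sensitive line, and those at 28 °C 88669 in the tolerant and 69814 in the sensitive line. It fell in the cold by −0.86 ± 0.18 (SE, adjusted p = 2.15e-05) in tolerant and −0.92 ± 0.18 (adjusted p = 4.26e-06) in sensitive roots, per the authors' deposited table. LOC_Os11g14430, with the next highest mean in that stretch (2947), lay between 2656 and 3749.9 normalised reads in tolerant and between 2426 and 3400.2 in sensitive libraries. It passed in neither cold response (adjusted p = 0.279 in tolerant and 0.142 in sensitive roots, per the authors' deposited table).

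In the third stretch 29 of 101 members (28.7%) were called in tolerant roots in the authors' deposited table, 16 higher and 13 lower at 10 °C. In sensitive roots 41 of 101 (40.6%) were called in the authors' deposited table, 21 higher and 20 lower. These shares too were below the 40.0% (tolerant) and 44.5% (sensitive) of all genes. The 24 members called in both lines were 13 higher and 11 lower in the cold. LOC_Os11g35450 had 2.02 and 0 normalised reads in tolerant roots at 10 °C against 57.5 and 70.5 at 28 °C, and 2.09 and 1.47 in sensitive roots at 10 °C against 49.2 and 167 at 28 °C. It fell in both lines, by −5.88 ± 1.27 (SE, adjusted p = 2.70e-05) in tolerant and −5.89 ± 1.12 (adjusted p = 1.16e-06) in sensitive roots, per the authors' deposited table. LOC_Os11g35930 had 1.01 and 1.22 normalised reads in tolerant roots at 10 °C against 24.7 and 12.4 at 28 °C, and 2.09 and 0 in sensitive roots at 10 °C against 113 and 31.0 at 28 °C. LOC_Os11g35660 had 0 and 0 normalised reads in tolerant roots at 10 °C against 41.5 and 67.2 at 28 °C, and 1.04 and 14.7 in sensitive roots at 10 °C against 14.5 and 72.0 at 28 °C. Its fall passed in tolerant roots (adjusted p = 8.88e-05) and not in sensitive roots (adjusted p = 0.0863) in the authors' deposited table, and the difference between the lines' responses was not called (adjusted p = 0.359, derived Wald test). The sensitive libraries overlapped between temperatures at that locus.

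LOC_Os11g36430 and LOC_Os11g36340 had the highest means of the third stretch, 3984 and 2760 normalised reads. Neither was called in the difference between the lines' cold responses, described below. LOC_Os11g36430 rose in the cold in both lines, with 4850.3 and 6150.4 normalised reads in tolerant roots at 10 °C against 2059 and 2399 at 28 °C, and 4217 and 7392 in sensitive roots at 10 °C against 2286 and 2516 at 28 °C. The log2 changes were 1.30 ± 0.33 (SE, adjusted p = 0.000373) in tolerant and 1.27 ± 0.33 (adjusted p = 0.000452) in sensitive roots, per the authors' deposited table. The call in sensitive roots was lost in a refit without the shallower sensitive library at 10 °C. LOC_Os11g36340 fell in sensitive roots by −0.72 ± 0.28 (SE, adjusted p = 0.0240) and stood at 0.02 ± 0.28 in tolerant roots in the authors' deposited table. Its call in sensitive roots was lost in a refit without the deeper sensitive library at 10 °C.

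**Figure D4:**
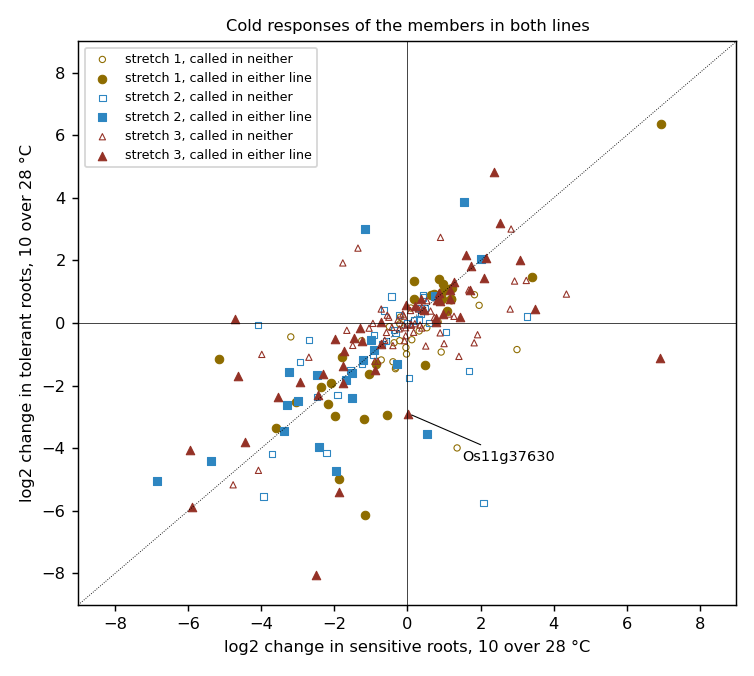
Log2 change of 10 °C over 28 °C in tolerant roots (vertical axis) against that in sensitive roots (horizontal axis) for each member tested, with 1 colour and symbol per stretch, filled where called in either line (authors' deposited values). Points of the second stretch have a median of −0.93 in the tolerant and −0.92 in the sensitive line, and LOC_Os11g10470 of the first stretch stands alone at the upper right (6.35 in tolerant and 6.93 in sensitive roots).

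The third comparison asked whether the response to the cold differed between the lines, tested as the difference of the log2 changes in the authors' deposited tables over the root of their summed squared SEs, with adjustment over 26199 genes. Of 208 members tested, 1 was called (0.481%), against 0.622% of all genes (0.214% with a more positive and 0.408% with a more negative response in tolerant roots). This test shares the 28 °C libraries with the contrast that chose the stretches. LOC_Os11g37630, in the third stretch, had 16.2 and 18.3 normalised reads in tolerant roots at 10 °C against 118 and 137 at 28 °C. In sensitive roots it had 119.9 and 76.6 at 10 °C against 90.3 and 104 at 28 °C. Only the tolerant cold libraries stood apart, below all 6 others. In the authors' deposited table the log2 change was −2.89 ± 0.46 (SE, adjusted p = 4.62e-09) in tolerant and 0.03 ± 0.40 (adjusted p = 0.965) in sensitive roots. The difference of the responses was −2.92 ± 0.60 (SE, adjusted p = 0.00163). It remained called in 7 of 8 refits that each left out 1 library, with adjusted p from 0.00263 to 0.0595, the highest without the deeper sensitive library at 10 °C (difference −2.55). Between lines, the locus differed by −2.52 ± 0.46 (SE, adjusted p = 1.05e-05) at 10 °C and by 0.39 ± 0.39 at 28 °C in the authors' deposited table.

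At the unadjusted level, 17 of the 208 members had p below 0.05 for the difference of responses (8.17%), against 8.05% of all genes tested, a share near that background. Some examples were chosen after their values were seen. LOC_Os11g35580 had 30.3 and 15.9 normalised reads in tolerant roots at 10 °C and 0 and 0 in sensitive roots, with 19.2 and 23.2 in tolerant and 5.64 and 6.38 in the sensitive line at 28 °C. LOC_Os11g10640 and LOC_Os11g37210, described above, were others. Their adjusted p for the difference of responses was 0.322 for LOC_Os11g35580, 0.318 for LOC_Os11g10640 and 0.261 for LOC_Os11g37210, so none of the 3 passed.

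**Figure D5:**
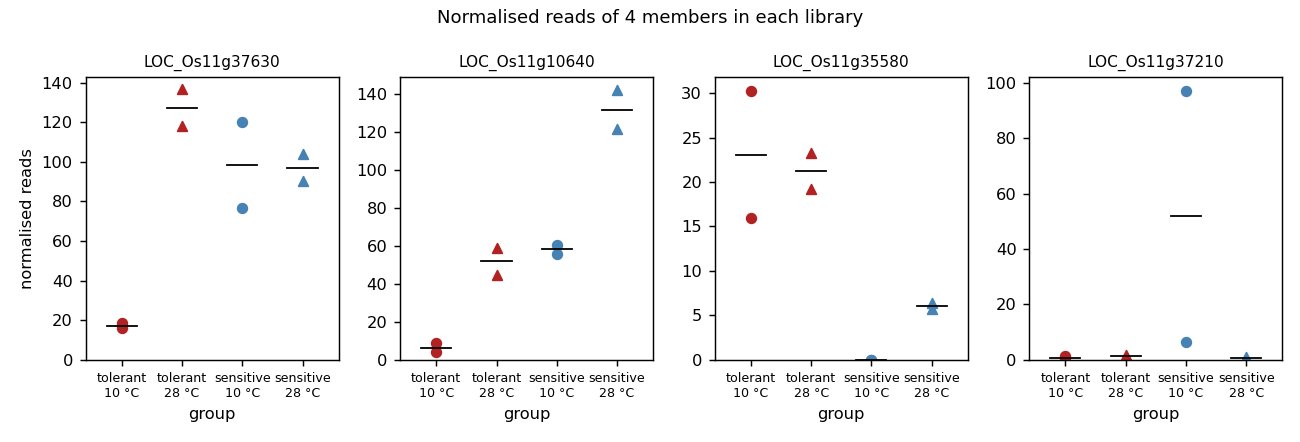
Normalised reads in each library (points, with black lines at group means) of 4 members, with tolerant left of sensitive roots and 10 °C left of 28 °C. LOC_Os11g37630, the only member called in the difference of cold responses, lies at 16.2 and 18.3 in tolerant roots at 10 °C and between 76.6 and 137 elsewhere; the 3 others did not pass and were chosen after their values were seen.

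At the ends of the stretches, the outermost members were not called at either temperature. These were LOC_Os11g09280 and LOC_Os11g10710 in the first stretch, LOC_Os11g14000 and LOC_Os11g15670 in the second, and LOC_Os11g35020 and LOC_Os11g37759 in the third. Their log2 differences at 28 °C were 0.23, −0.35, 0.81, −3.32, 0.01 and 0.60, in that order, in the authors' deposited table. LOC_Os11g15670 had an SE of 2.53 in the authors' deposited table, so its size carries little weight. Just outside, before the first stretch, LOC_Os11g09180 stood at −0.88 ± 0.48 (SE) at 28 °C and −0.08 ± 0.55 at 10 °C, per the authors' deposited table. LOC_Os11g09170, the next locus out, stood at 0.09 ± 0.22 (SE) at 28 °C and 1.04 ± 0.22 at 10 °C, where it was called (adjusted p = 0.000226 in the authors' deposited table). LOC_Os11g15700 after the second stretch stood at −3.90 ± 1.17 (SE) at 28 °C and −3.80 ± 1.08 at 10 °C, where it was called too (adjusted p = 0.0200 in the authors' deposited table). LOC_Os11g10740, LOC_Os11g13990, LOC_Os11g34980 and LOC_Os11g37774, the nearest outside at the other ends, lay between 0.00 and 0.76 at 28 °C. At the threshold on the mean, LOC_Os11g14280 (1.09) and LOC_Os11g37110 (1.07) were just inside, and LOC_Os11g10200 (0.997) and LOC_Os11g14400 (0.965) just outside.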

How the data were processed

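The data used were 4 comparison tables deposited by the authors, 1 per pair of groups, with 42189 gene IDs each; per the file headers they are DESeq2 results tables of the authors, of unstated version. The mean signal per gene is the authors' deposited mean of size-factor-scaled counts, and it was the same in all 4 tables, so 1 fit held all 8 libraries. The log2 fold changes with their SEs, the Wald score, and the p-values and adjusted p-values (Benjamini-Hochberg) are also as deposited by the authors. The submitters' processing notes name Bowtie 0.12.7, while the names of the tables point to another aligner, STAR; which of them made the values is unstated, as are the build, annotation, counter and handling of multiply matching reads (not given in the sources used here). Near-identical copies of a gene could share such reads, so a level at a locus of a gene cluster is uncertain to that extent.

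Size factors came from genes seen as 1 read in 1 library. Whole reads per library were then the counts that met the deposited mean, fold changes and SEs at once, accepted only where 1 solution existed and under 0.01 chance matches were expected; this gave 34868 of 35835 genes and 218 of 221 members (not LOC_Os11g09280, LOC_Os11g14140 and LOC_Os11g14220). On 221 simulated loci, 216 were recovered, 0 wrongly. Fits on recovered reads departed from the deposited log2 values by at most 3.24e-05. These reads served for values per library and for refits of the negative binomial model that left out 1 library, with each gene's dispersion kept; a gene without recovered reads kept its deposited p there.

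Genes were called where the authors' deposited adjusted p was below 0.05. The difference of cold responses was tested by dividing the difference of both deposited log2 changes by the root of their summed squared SEs (a derived Wald test), over 26199 genes. A group with 0 reads was set to a floor of 3 reads for a fold, and the level of the other line was taken as observed. Genes named were, per stretch, up to 8 members with the largest difference at 10 °C among those called at both temperatures, members called in the difference of cold responses, the 2 largest cold changes in each line, the 2 highest means, and the largest called at a single temperature. The members, lists and tests were chosen with earlier results of these data known. Alternatives were an adjusted p below 0.01, other limits on the mean, size and reads, and leaving out each library. Python 3.11.15, numpy 2.4.6, pandas 2.3.3 and scipy 1.17.1 were used. No sequence of these loci was used here.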

Additional observations from a re-analysis of the deposited data

Results flagged for a closer look

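LOC_Os11g37630 stood out because its response to the cold differed between the lines, by −2.92 on the log2 scale (SE 0.60, adjusted p = 0.00163, derived Wald test over 26199 genes), tolerant minus sensitive. It fell in both tolerant libraries, while the sensitive libraries at 10 °C and 28 °C overlapped. Its adjusted p was 0.0595 without the deeper sensitive library at 10 °C.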

How the results depend on the processing

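Counts of called members moved by less than 1.5 times under most settings (an adjusted p below 0.01, calls of at least 2-fold, adjustment over every gene, a mean of at least 10, genes above the median mean). The exception was the cold response of sensitive roots, with 50 members in place of 80 at an adjusted p below 0.01. Leaving out 1 library at a time, with the lone library of a group assumed to vary like the others, gave 19 to 26 members at 10 °C (32 with all libraries; 19 without the deeper sensitive and 19 without the deeper tolerant cold library), 16 to 21 at 28 °C (23), 54 to 63 in the cold response of tolerant roots (71), 46 to 58 in that of sensitive roots (80; 46 without the shallower cold library) and 0 to 1 in the difference of responses (1; 0 without the deeper sensitive cold library). Of 76 line differences of named loci, 11 changed sign when a library was left out, and 0 of these 11 were called. Those of LOC_Os11g09280 and LOC_Os11g14220 are among the 76 but could not change, since reads of these loci were not recovered. The widest changes of sign were those of LOC_Os11g15180 at 10 °C (2.42, and −2.50 at the lowest) and LOC_Os11g35930 at 10 °C (−0.08, and 2.03 at the highest). The nearly silent members, 10 as reported, numbered 5 with 0 reads allowed, 6 with at least 200 reads required in the other line, and 14 with up to 10 reads allowed; these limits were set after the data were seen. No paired analysis was possible because the deposited tables carry no replicate numbers. The cause of these moves was not tested. With 0 reads in a group, depth limits any fold to a lower limit, and the limits given leave out the error of the other line.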
